A study of Mus musculus with 4 samples.

Results

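Cx3cr1 S1pr5 cells are CD8 T cells whose RNA held the chemokine receptor Cx3cr1 or the sphingosine 1-phosphate receptor S1pr5 together with the transcription factor Klf2, with no transcript of the inhibitory receptor Pdcd1 and almost none of the cell division genes. Single cells were counted in UMIs, the molecular tags that mark separate mRNA molecules. A cell was kept when it had 600 or more detected genes and less than 30% of its UMIs from mitochondrial genes. A Cx3cr1 S1pr5 cell then had 1 or more UMIs of Cd3e, of Cd8a or Cd8b1, of Cx3cr1 or S1pr5, and of Klf2, 0 UMIs of Cd4, Foxp3 and Pdcd1, and fewer than 2 of Mki67 and Top2a together. Members were thus chosen by the UMI counts of these 11 genes. This rule found 441 cells among 9152 CD8 cells and 20170 cells in all, 265 in the WT library and 176 in the VISTA-KO library. The rule reads RNA, so the levels of genes in these cells against other cells are given as a description, and none of them was tested.

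The tumors were B16, a mouse melanoma line that is grown by transplantation. All mice carried Vsir fl/fl, in which the gene for the checkpoint protein VISTA is flanked by loxP sites. VISTA-KO mice also carried CD4cre, which is driven by the Cd4 promoter and so acts in developing T cells of the CD4 and the CD8 lineage, and WT mice were littermates without Cre. The mice were 6 to 8 weeks old, received a TRP2 peptide vaccine with CpG and R848 on day 3 after tumor inoculation and antibody against CTLA-4 on days 4 and 8, and the cells were isolated on day 18 after treatment. The sources used here differ on how many mice or tumors of a genotype were pooled. After pooling, CD4+ and CD8+ T cells were enriched and sorted, and each pool gave 1 library of mRNA and 1 of T cell receptors. With 1 library for each genotype there is no replicate. No p-value, SE or test is therefore given anywhere, genotype, pool and library cannot be told apart, and the intervals cover counting error only. These are 95% intervals, exact Poisson for levels, exact conditional for ratios of levels and exact binomial (Clopper-Pearson) for shares.

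Cytotoxic CD8 T cells that patrol the blood are known to carry Cx3cr1, which binds the membrane-bound chemokine Cx3cl1 on endothelium. S1pr5 and its relative S1pr1 sense sphingosine 1-phosphate, a lipid that is abundant in blood and lymph and draws lymphocytes out of tissue. The transcription factor Klf2 turns on S1pr1, whereas Zeb2, together with Tbx21, drives the terminal effector state marked by Klrg1. T cells that reside in tissue, and T cells exhausted by lasting antigen in tumors, usually hold little of this program. Both libraries here are of tumors, and whether any of these cells had been in the circulation was not tested.

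Cx3cr1 S1pr5 cells made up 5.23% (4.63 to 5.88) of CD8 cells in the WT library and 4.31% (3.71 to 4.98) in the VISTA-KO library. With at least 2 UMIs of Cx3cr1 and S1pr5 together required, the shares were 3.10% and 1.96%. A UMI of Cx3cr1 or S1pr5 was found in more CD8 cells, 16.4% in WT and 10.8% in VISTA-KO. The rest of the rule was met by 32.0% (28.8 to 35.3) of these WT cells and by 40% (35.4 to 44.7) of these VISTA-KO cells. The share with either UMI was thus higher in the WT library, and the part of it that also held Klf2, no Pdcd1 and no division was higher in the VISTA-KO library. In WT the rule left 829 cells with either UMI, 509 of them with Klf2, 277 without Pdcd1 and 265 with fewer than 2 division UMIs. In VISTA-KO these steps left 440, 298, 194 and 176 cells.

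Levels below are in CPM, the UMIs of a gene per 1000000 UMIs summed over the cells of a group. The Cx3cr1 S1pr5 cells held 1081859 UMIs in WT and 804785 in VISTA-KO, with medians of 3689 and 4176.5 UMIs a cell. They were compared within each library with CD8 cells with neither UMI, 4239 in WT and 3644 in VISTA-KO, whose medians were 4715 and 5163.5 UMIs. Most of those cells lacked Klf2, held Pdcd1 or were dividing. A second comparison therefore used matched CD8 cells, the 938 and 1022 of them that also met the conditions on Klf2, Pdcd1, Mki67 and Top2a, with medians of 4290.5 and 4567.5 UMIs. The 564 WT and 264 VISTA-KO cells with either UMI that failed those conditions are called other CD8 cells with a Cx3cr1 or S1pr5 UMI. They were deeper, with medians of 7819 and 8124 UMIs. Of the barcodes, 145 occurred in both libraries, 3 Cx3cr1 S1pr5 cells had such a barcode, and 0 barcodes were Cx3cr1 S1pr5 cells in both.

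The targeted gene did not separate the libraries. In Cx3cr1 S1pr5 cells Vsir lay at 148 CPM (126 to 173) for WT and 129 CPM (106 to 157) for VISTA-KO, whose ratio was 0.874 (0.676 to 1.13), and at 116 and 114 CPM in CD8 cells with neither UMI. Which exons the loxP sites flank is not given in the sources used here, and reads from outside the deleted part check nothing about the deletion. WT and VISTA-KO below are the libraries so labelled.

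The genes of the rule itself, Cx3cr1 (chromosome 9, 120048683 to 120068296, GRCm38.p6) and S1pr5 (chromosome 9, 21242917 to 21248443), were at 315 and 301 CPM in WT and at 314 and 221 CPM in VISTA-KO. Klf2 was at 1900 and 2030 CPM in the WT and VISTA-KO libraries, against 361 and 550 CPM in CD8 cells with neither UMI. A UMI of Cx3cr1 alone was held by 72 WT and 91 VISTA-KO cells, of S1pr5 alone by 90 and 40, and of both by 103 and 45. In WT, then, cells with both were the most frequent, and in VISTA-KO, cells with Cx3cr1 alone.

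Of the other marker genes of the circulating type, Gzma, Zeb2 and Klrg1 were high. Gzma (ENSMUSG00000023132, chromosome 13, 113093824 to 113100981), the tryptase of cytotoxic granules, was at 3872 CPM in Cx3cr1 S1pr5 cells against 176 in cells with neither UMI and 255 in matched cells of the WT library. In the VISTA-KO library the 3 levels were 2878, 91.6 and 104 CPM. The ratios to cells with neither UMI were 21.9 (21.0 to 22.9) and 31.4 (29.6 to 33.4), and those to matched cells were 15.2 (14.2 to 16.2) and 27.6 (25.1 to 30.4). Gzma was thus more than an order of magnitude higher in both libraries against both comparison groups. Zeb2 (ENSMUSG00000026872, chromosome 2, 44983512 to 45117442), the repressor that promotes terminal effector differentiation, was at 312 CPM against 30.5 and 29.3 CPM in WT and at 261 against 32.1 and 22.5 CPM in VISTA-KO. Klrg1, an inhibitory receptor for cadherins that marks terminal effectors, was at 317 against 31.5 and 39.4 CPM in WT and at 246 against 50.9 and 24.8 CPM in VISTA-KO. For these 3 genes no interval of the Cx3cr1 S1pr5 cells reached a comparison group, as the plot of levels shows.

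**Figure D1:**
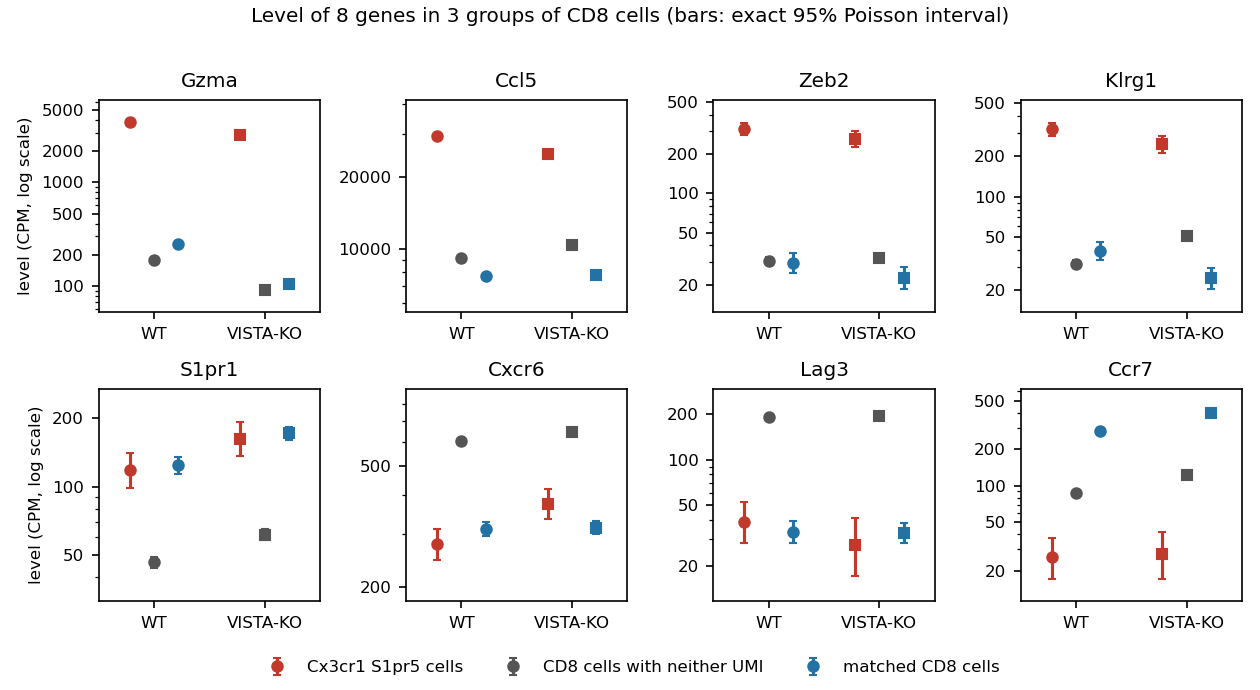
Level in CPM (log scale) of 8 genes in Cx3cr1 S1pr5 cells, CD8 cells with neither UMI and matched CD8 cells of the WT library (circles) and the VISTA-KO library (squares), with exact 95% Poisson intervals. Gzma, Ccl5, Zeb2 and Klrg1 were high in Cx3cr1 S1pr5 cells against both comparison groups, S1pr1 and Lag3 lay at the level of the matched cells, and Ccr7 lay below both groups.

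Single cells differed in how many of these markers they showed. To set cells of unlike depth side by side, each was thinned to 2000 UMIs, which left out 9 WT and 6 VISTA-KO cells that held fewer. At that depth 75% (69.2 to 80.2) of the WT and 64.1% (56.4 to 71.3) of the VISTA-KO Cx3cr1 S1pr5 cells held a UMI of Gzma, Zeb2 or Klrg1, against 19.4% and 17.5% of CD8 cells with neither UMI and 18.2% and 10.5% of matched cells. UMIs of 2 or more of the 3 genes were in 47.3% and 35.9% of Cx3cr1 S1pr5 cells, 2.58% and 1.71% of cells with neither UMI and 4.12% and 1.62% of matched cells. As a measure of free RNA, CD4 T cells with a Ccr7 UMI and no Cd8a, Cd8b1 or Foxp3 UMI held 1 or more of the 3 genes in 3.33% and 1.70% of cells, with median depths before thinning of 4210.5 and 4148 UMIs against 3731.5 and 4210.5 in the Cx3cr1 S1pr5 cells. Cells with 2 or more of these markers were thus more frequent among Cx3cr1 S1pr5 cells than in the comparison groups. Whether the markers went together more often than their single shares would give was not tested. The shares lay above those in cells that should lack them. Before thinning, 40 WT cells (15.1%) and 49 VISTA-KO cells (27.8%) met the rule with no UMI of Gzma, Zeb2 or Klrg1.

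Gzma, Zeb2, Klrg1 and Tbx21 were highest in the cells with both UMIs, whereas Gzmb in VISTA-KO and Gzmm in both libraries were not. Gzma was at 2465 CPM (2295 to 2645) in WT cells with Cx3cr1 alone, at 3697 (3493 to 3909) in those with S1pr5 alone and at 5040 (4831 to 5257) in those with both. In VISTA-KO the values were 1709 (1587 to 1839), 2436 (2215 to 2673) and 5730 (5404 to 6071) CPM. The order was the same in both libraries, and VISTA-KO lay below WT in the subsets with 1 of the genes and above it in the subset with both. Zeb2 was at 434 and 518 CPM in cells with both UMIs (WT and VISTA-KO), against 142 to 252 CPM in cells with 1 of them. Tbx21, the T-box factor that drives effector genes with Zeb2, was at 311 and 443 CPM with both UMIs, against 193 and 214 CPM with Cx3cr1 alone. Klrg1 was at 411 and 473 CPM with both UMIs, against 218 and 145 CPM with Cx3cr1 alone. Gzmb, which encodes the protease granzyme B, was at 876 CPM (775 to 985) with Cx3cr1 alone, 1872 (1728 to 2025) with S1pr5 alone and 1992 (1861 to 2130) with both in WT. In the VISTA-KO subsets it was lowest with both, at 1322 (1215 to 1437), 1593 (1415 to 1787) and 986 CPM (853 to 1133). Gzmm, another granzyme gene, was at 88.5, 135 and 58.0 CPM in the WT subsets and at 28.5, 76.6 and 64.7 CPM in those of VISTA-KO, from 12 to 45 UMIs each. In WT the subset with Cx3cr1 alone also held most of the RNA of other cell types, with 63 of 63 Lyz2, 13 of 14 C1qa and 603 of 634 Cd74 UMIs, and Cx3cr1 itself is a macrophage gene. The part of this RNA in the order of the subsets was not tested. S1pr1 followed no such order either, at 117, 108 and 128 CPM in the WT and 164, 170 and 154 CPM in the VISTA-KO subsets. A cell with both UMIs holds at least 2 UMIs of the pair, so the subsets also differ in how firmly the rule was met.

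**Figure D2:**
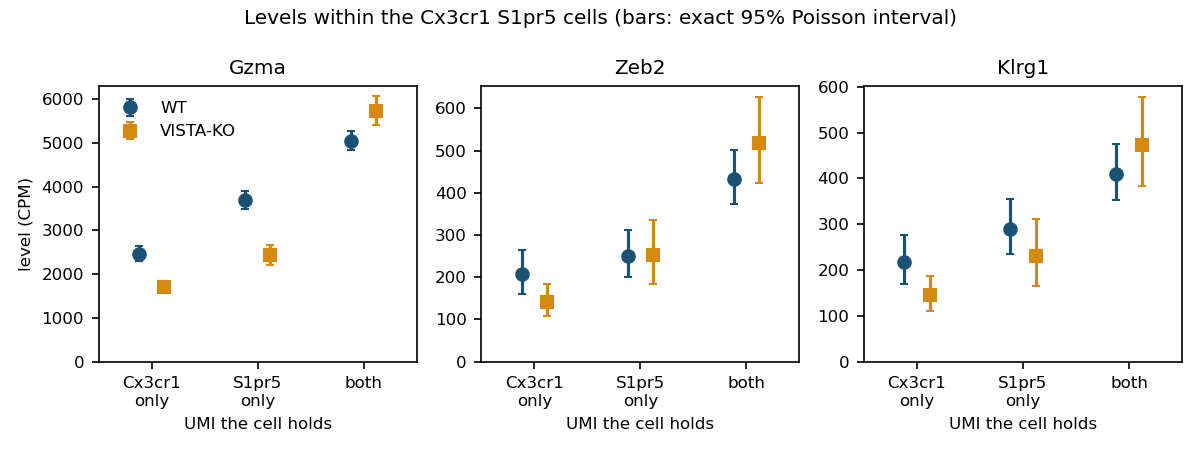
Level in CPM of Gzma, Zeb2 and Klrg1 in Cx3cr1 S1pr5 cells that held a UMI of Cx3cr1 alone, of S1pr5 alone or of both, in the WT library (circles) and the VISTA-KO library (squares), with exact 95% Poisson intervals. All 3 genes were highest in cells with both UMIs, where Gzma reached 5040 and 5730 CPM in WT and in VISTA-KO, respectively.

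Levels at the edge of the rule differed between its conditions. With 1 UMI of Cx3cr1 and S1pr5 together, Gzma was at 2236 and 1247 CPM in the WT and VISTA-KO libraries, and with 2 or more at 4961 and 4871 CPM. Just inside the Klf2 threshold (1 UMI, 46 and 21 cells) it was at 1883 and 1523 CPM, and just outside it (0 UMIs with the rest of the rule met, 86 and 33 cells) at 665 and 1128 CPM. The cells just outside also held macrophage RNA, with Lyz2 at 254 and 212 CPM and C1qa at 95.4 and 146 CPM, both of which were at 0 just inside. Just outside the Pdcd1 threshold (1 UMI, 60 and 27 cells) it was at 1716 and 2084 CPM, and with 2 or more Pdcd1 UMIs (104 and 51 cells) at 635 and 329 CPM. Lyz2 was at 594 and 49.6 CPM in those with 1 Pdcd1 UMI and at 234 and 203 CPM in those with more, and its part in these levels was not tested. For division, cells with 1 UMI of Mki67 and Top2a (42 and 26 cells) held 2164 and 3609 CPM, and the 12 and 18 cells with 2 or more held 391.5 and 336 CPM. The level of 3609 CPM (3297 to 3943) in the VISTA-KO cells with 1 division UMI lay above that of all VISTA-KO Cx3cr1 S1pr5 cells, 2878 CPM (2762 to 2997). All cells with either UMI that failed the rule together held 459 and 329 CPM, so Gzma was well below the level of the Cx3cr1 S1pr5 cells there although a Cx3cr1 or S1pr5 UMI was present.

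Over all genes, a gene was called when it differed at least 2-fold in the same direction in both libraries, on log2 of CPM + 5, with at least 20 CPM in the higher group of each. Against CD8 cells with neither UMI, 58 of 5969 genes were called higher (0.972%) and 83 lower (1.39%), and against matched cells 57 of 5832 were called higher (0.977%) and 34 lower (0.583%). The median log2 ratio of all genes was 0.02 in WT and 0.03 in VISTA-KO against cells with neither UMI, and 0.12 and 0.13 against matched cells. The 15 genes with the highest ratios to cells with neither UMI, leaving out the rule's genes and receptor segments, were Gzma, Zeb2, Rap1gap2, Kcnj8, As3mt, Klrg1, Dtx1, Stard10, Rasgrp2, Sgk1, Pogk, D1Ertd622e, Ripor2, Il18rap and Lair1. Among them, Rasgrp2 and Rap1gap2 act on Rap1, the small GTPase that switches on lymphocyte integrins, one as its activator and the other as its brake. Rasgrp2 was at 312 CPM in the WT Cx3cr1 S1pr5 cells against 58.1 with neither UMI and 112 in matched cells, and at 255 against 56.2 and 112 CPM in VISTA-KO. Stard10, a lipid transfer protein, was at 104 against 18.1 and 19.4 CPM in WT and at 75.8 against 13.5 and 19.1 CPM in VISTA-KO. Against matched cells, Dtx1, a regulator of Notch signalling, and Ripor2, a RhoA inhibitor, came closer to level, with log2 ratios of 1.25 and 0.76 for Dtx1 and 0.89 and 0.61 for Ripor2.

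The 15 genes with the lowest ratios were Pclaf, Ccl1, Nrgn, Rgs16, Ube2c, Cenpf, Ccna2, Tk1, Birc5, Spc24, Xcl1, Lag3, Aurkb, Clspn and Kif11. Most of them serve DNA replication or mitosis, which the rule bears on through Mki67 and Top2a, and Lag3 and Rgs16 go with chronic stimulation, on which it bears through Pdcd1. Against matched cells the division genes lay between -0.72 and 0.99 on the log2 scale. Lag3, an inhibitory receptor that binds MHC class II, was at 38.8 CPM in WT against 192 with neither UMI and 33.5 in matched cells, and at 27.3 against 195 and 33.0 CPM in VISTA-KO. The chemokine Xcl1, which attracts cross-presenting dendritic cells, was low against both groups, at 28.7 against 152 and 125 CPM in WT and 49.7 against 243 and 125 CPM in VISTA-KO. Ccl1, another chemokine, was listed at 0 UMIs in the WT Cx3cr1 S1pr5 cells against 53.7 and 48.9 CPM, and at 2.49 against 70.6 and 16.9 CPM in VISTA-KO. Against matched cells Xcl1 was called lower, and Ccl1, with log2 ratios of -3.43 and -1.55, was under the floor in VISTA-KO and was not called.

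**Figure D3:**
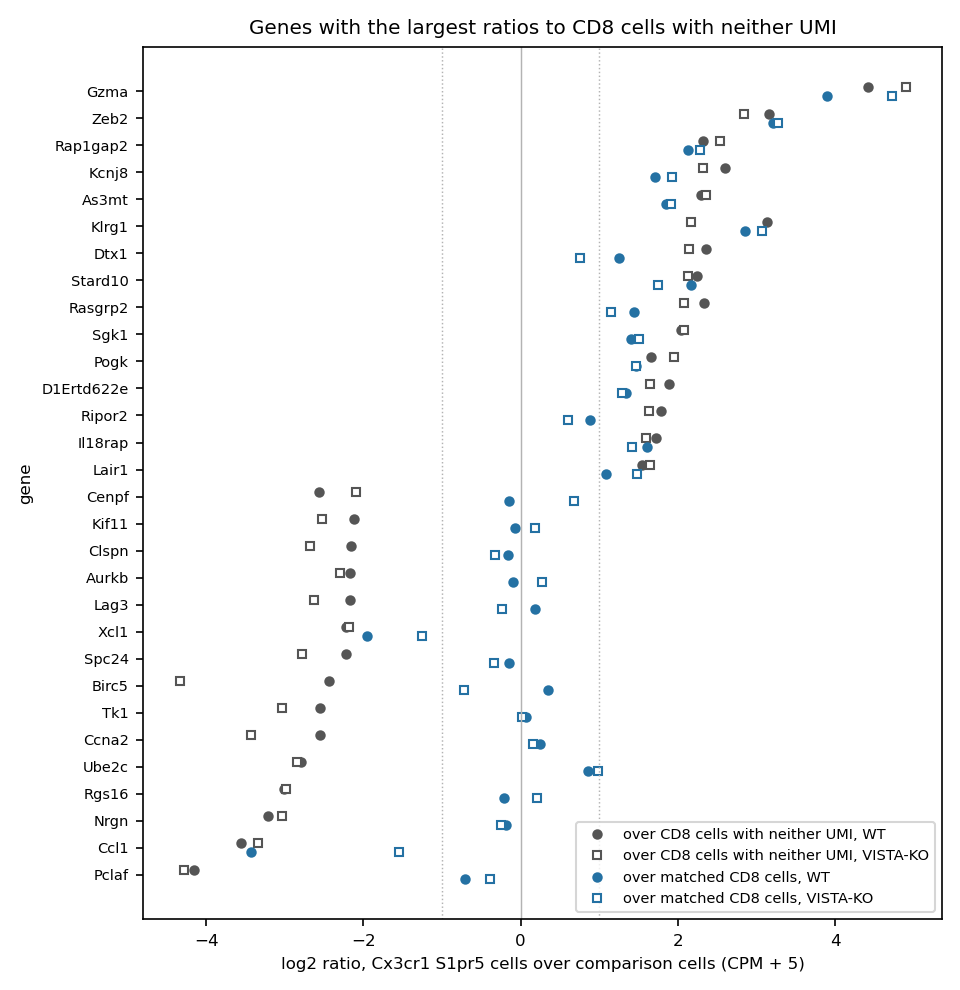
Log2 ratio (CPM + 5) of Cx3cr1 S1pr5 cells over CD8 cells with neither UMI (grey) and over matched CD8 cells (blue) in the WT (filled circles) and VISTA-KO (open squares) libraries, for the 15 genes with the highest and the 15 with the lowest ratios to cells with neither UMI; dotted lines mark 2-fold. The higher genes kept positive ratios to matched cells, from 0.61 to 4.72, whereas most of the lower genes came near 0 and Ccl1 and Xcl1 stayed below -1.

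The circulating effector list had 15 of 17 genes over the floor, with 7 called higher and 1 lower against cells with neither UMI and a median log2 ratio of 1.25 in WT and 1.03 in VISTA-KO. Against matched cells 5 of 14 were called higher and 1 lower. Zeb2, Klrg1, Gzma and Il18rap, a chain of the interleukin 18 receptor, were called higher against both groups. Adgrg1, by contrast, was called lower against cells with neither UMI, and its mean log2 ratio to matched cells over both libraries was 0.084. S1pr1, the receptor that takes lymphocytes out of tissue, was at 118 and 163 CPM in WT and in VISTA-KO, respectively, against 46.3 and 61.4 CPM with neither UMI but 124 and 172 CPM in matched cells. S1pr1 was thus called higher against cells with neither UMI but not against matched cells, which also met the conditions on Klf2, Pdcd1, Mki67 and Top2a. S1pr4, a further receptor of this family, was at 241 and 256 CPM against 88.4 and 98.1 CPM with neither UMI and 109 and 129 CPM in matched cells, with log2 ratios to the latter of 1.11 and 0.97.

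Cytotoxic genes stood out more against matched cells, where 5 of 13 were called higher and 0 lower with medians of 1.16 and 0.92, than against cells with neither UMI, where 2 of 13 were called higher and 0 lower with medians of 0.62 and 0.19. Matched cells more often held naive and memory RNA, with a Ccr7 UMI in 32.9% and 37.8% of WT and VISTA-KO cells and a Tcf7 UMI in 69.0% and 67.4%. With neither UMI these shares were 12.2% and 15.5% for Ccr7 and 40.8% and 36.9% for Tcf7. Gzmb, the granzyme that triggers apoptosis through caspases, was at 1629 CPM in WT against 733 with neither UMI and 407 in matched cells. In VISTA-KO it was at 1300 CPM against 1379 and 464 CPM, so there the cells with neither UMI held as much. Perforin (Prf1), the pore that lets granzymes in, was at 244 against 157 and 74.7 CPM in WT and at 168 against 182 and 76.7 CPM in VISTA-KO. The death ligand Fasl was at 381 against 200 and 149 CPM in WT and at 398 against 247 and 164 CPM in VISTA-KO. Gzmm, a further granzyme, was called higher against cells with neither UMI, at 90.6 against 11.2 CPM in WT and 48.5 against 15 CPM in VISTA-KO. Matched cells held Gzmm at 26.9 and 31.2 CPM, and against them it was not called. Serpinb9, which protects killers from their own granzyme B, was at 140 and 103 CPM against 60.2 and 46.5 CPM in matched cells.

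Of the cytokines and chemokines, 1 of 7 was called higher and 3 lower against cells with neither UMI, and 1 and 1 of 6 against matched cells. The higher gene was Ccl5, a chemokine stored by cytotoxic cells, at 29583 CPM in WT against 9204 with neither UMI and 7703 in matched cells, and at 24844 against 10428 and 7801 CPM in VISTA-KO. The lower ones were Ccl1, Xcl1 and Ccl3. Ccl3, a chemokine for macrophages and T cells, was at 117 and 130 CPM against 311 and 394 CPM with neither UMI, and against matched cells, at 70.5 and 81.3 CPM, it lay on the other side. Ifng, the main cytokine of type 1 immunity, was at 263 and 483 CPM in the WT and VISTA-KO libraries against 130 and 201 CPM in matched cells and was not called.

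Of the egress and homing list, 5 of 18 genes were called higher and 1 lower against cells with neither UMI, and 2 and 2 against matched cells. Itgb2, the beta chain of the integrin LFA-1, was at 736 and 765 CPM against 348 and 353 CPM in matched cells and was called higher there. Ccr7, which guides T cells into lymph nodes, was called lower against both groups, at 25.9 CPM in WT against 87.1 and 281 CPM and at 27.3 CPM in VISTA-KO against 122 and 396 CPM. None of 8 tissue residency genes was called against cells with neither UMI, and 1 of 9 was lower against matched cells. Cxcr6, a chemokine receptor of resident and tumor T cells, was at 276 and 375 CPM in WT and in VISTA-KO, respectively, against 605 and 646 CPM with neither UMI and 311 and 314 CPM in matched cells. The gene of the list called lower was Rgs10, a brake on G protein signalling, at 27.7 and 31.1 CPM against 139 and 117 CPM.

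Naive and memory genes were low beside matched cells. Of 16 genes, 7 were called lower and 0 higher, with medians of -1.09 in WT and -1.49 in VISTA-KO, against 2 lower of 14 beside cells with neither UMI. Tcf7, the factor of naive and stem-like T cells, was at 185 and 195 CPM in the WT and VISTA-KO libraries against 386 and 395 CPM in matched cells, but 154 and 143 CPM with neither UMI. Il7r, the survival receptor for interleukin 7, was at 97.1 against 313 CPM in WT and 219 against 383 CPM in VISTA-KO. Dapl1, found in naive and central memory CD8 T cells, was at 2.77 against 74.9 CPM and at 6.21 against 76.3 CPM. Klf2 and the absence of Pdcd1, which both groups share, thus went with more of these genes in matched cells than in Cx3cr1 S1pr5 cells.

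Inhibitory receptors and exhaustion genes were low beside cells with neither UMI, with 8 of 15 called lower, 1 higher (Nr4a1) and medians of -1.20 and -1.22. Beside matched cells 0 of 14 were called lower and 1 higher (Bhlhe40), with medians of 0.23 and 0.34. Pdcd1 is in the rule, and genes that go with it are not independent of the rule. Tox, the factor that fixes exhaustion, was at 57.3 and 44.7 CPM against 187 and 168 CPM with neither UMI and 52.0 and 57.4 CPM in matched cells. Havcr2, the receptor TIM-3, was at 15.7 and 22.4 CPM against 43.9 and 72.0 CPM with neither UMI and 5.73 and 6.24 CPM in matched cells. Tigit and Tnfrsf9 likewise lay below the first group and slightly above the second.

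Among transcription factors of CD8 fate, 2 of 19 were called higher (Zeb2 and Klf3) and 2 lower (Tox and Irf8) against cells with neither UMI, and 3 of 20 higher (Zeb2, Tbx21 and Bhlhe40) and 1 lower (Id3) against matched cells. Tbx21 was at 255 CPM in WT against 104 and 102 CPM, and at 292 CPM in VISTA-KO against 145 and 139 CPM. Eomes, its relative in memory and exhausted cells, was at 108 and 92 CPM against 99.6 and 101 CPM with neither UMI and was not called. Id3, an inhibitor of E proteins in memory precursors, was at 15.7 and 9.94 CPM against 63.7 and 43.3 CPM in matched cells. Of the NK-type receptors, 3 of 10 were called higher and 0 lower against cells with neither UMI, and 4 of 11 higher and 1 lower against matched cells. Klrk1, the activating receptor NKG2D, was at 377 CPM in WT against 165 and 177 CPM and at 495 CPM in VISTA-KO against 198 and 215 CPM. Klre1, a lectin-like receptor that pairs with other family members, was at 98.9 against 23.4 and 31.1 CPM in WT and at 82.0 against 31.6 and 31.0 CPM in VISTA-KO. These lists overlap, since Zeb2, Klrg1 and Gzma each stand in 2 of them.

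Few genes of the other lists were called. For S100 and annexin genes, 1 of 16 was called higher against cells with neither UMI and 3 of 16 against matched cells, among them Ahnak, a large scaffold protein of migratory effector cells, at 1020 and 1125 CPM in WT and in VISTA-KO, respectively, against 446 and 489 CPM in matched cells. Of the immediate early genes, 2 of 18 were called higher against cells with neither UMI (Nr4a1 and Ier2), and 1 of 18 lower against matched cells (Myc, a transcription factor of cell growth, at 25.9 and 46.0 against 105 and 109 CPM). Interferon-stimulated genes had 0 of 13 called, with medians of -0.88 and -0.59 against cells with neither UMI and -0.78 and -0.10 against matched cells, of which 0 of 12 were called. Isg15, a ubiquitin-like protein induced by interferon, was at 85.0 CPM in WT against 161 and 146 CPM and at 116 CPM in VISTA-KO against 169 and 112 CPM. Neither heat shock genes (0 of 12) nor quiescence genes (0 of 13) were called in either comparison.

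Levels of other cell types' markers differed between the lists and libraries. No gene of the macrophage, monocyte, NK cell, B cell, plasmacytoid dendritic and dendritic lists was called against cells with neither UMI, where 3, 1, 2, 1, 1 and 3 of their genes passed the floor. Against matched cells, Tyrobp of the NK cell list and Ighm of the B cell list were called lower. No gene of the melanoma, red cell and platelet, and gamma-delta and NKT lists passed the floor. The macrophage list summed to 359 and 183 CPM in the WT and VISTA-KO libraries, against 269 and 246 CPM with neither UMI, led by Ctss at 167 and 135 CPM. The NK cell list summed to 108 and 103 CPM, against 121 and 122 CPM, led by Fcer1g. The dendritic list summed to 886 and 88.2 CPM in WT and in VISTA-KO, respectively, against 467 and 168 CPM, led by Cd74, so that in WT both this sum and that of the macrophage list were higher than with neither UMI. The defining genes Flt3, Xcr1, Clec9a and Cd209a were at 0 in both. The monocyte genes Ace, Treml4 and Cd300e, the B cell genes Ms4a1 and Pax5, and Siglech were at 0 in both libraries as well. The monocyte list summed to 140 and 120 CPM, led by Cebpb, the B cell list to 81.3 and 55.9 CPM, led by Ighm, the plasmacytoid dendritic list to 133 and 150 CPM, led by Bst2, and the gamma-delta and NKT list to 25.9 and 72.1 CPM. The melanoma list summed to 3.70 and 1.24 CPM in the WT and VISTA-KO libraries, and the red cell and platelet list to 0 in both. Ncr1, which marks NK cells, was listed at 0 in the WT library and at 3.73 CPM in the VISTA-KO library. A UMI of Klrb1c or Ncr1 was in 5.66% and 7.95% of Cx3cr1 S1pr5 cells against 1.27% and 1.45% of cells with neither UMI, and a UMI of Trdc, the constant region of the delta chain, was in 4 WT and 8 VISTA-KO cells (1.51% and 4.55%), against 0.637% and 1.43% of cells with neither UMI. A macrophage UMI (C1qa, C1qb, C1qc, Csf1r or Lyz2) was in 1.89% and 2.84% of Cx3cr1 S1pr5 cells, against 5.17% and 6.89% of cells with neither UMI, 2.35% and 3.13% of matched cells and 10.5% and 11.7% of other CD8 cells with a Cx3cr1 or S1pr5 UMI. The part of such cells or of free RNA in the levels above was not tested.

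Each T cell clone carries its own receptor, made by joining V, D and J segments with random bases between them. The receptor was not used by the rule. A clonotype here is the V segment and CDR3 bases of the alpha and of the beta chain with most UMIs, where the CDR3 is the loop that touches the antigen. It was known for 201 WT (75.8%) and 144 VISTA-KO (81.8%) Cx3cr1 S1pr5 cells, which fell into 67 and 113 clonotypes. The beta chain CDR3s of the 4 clonotypes with most Cx3cr1 S1pr5 cells in each library follow because they show which clones made up the population, 5′ to 3′ as assembled by the authors, with capitals for a stretch of 9 bases that several share.
WT 1, TRBV12-2 and TRBJ2-7, 52 cells: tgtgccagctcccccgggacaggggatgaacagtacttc
WT 2, TRBV16 and TRBJ2-4, 16 cells: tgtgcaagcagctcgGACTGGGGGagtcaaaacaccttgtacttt
WT 3, TRBV16 and TRBJ2-4, 14 cells: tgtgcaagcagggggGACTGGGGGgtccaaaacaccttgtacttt
WT 4, TRBV10 and TRBJ2-4, 9 cells: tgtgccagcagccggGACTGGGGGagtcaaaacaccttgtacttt
VISTA-KO 1, TRBV5 and TRBJ2-7, 6 cells: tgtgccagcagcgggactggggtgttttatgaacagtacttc
VISTA-KO 2, TRBV19 and TRBJ2-7, 6 cells: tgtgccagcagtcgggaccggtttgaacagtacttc
VISTA-KO 3, TRBV31 and TRBJ2-4, 5 cells: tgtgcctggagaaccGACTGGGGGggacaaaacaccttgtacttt
VISTA-KO 4, TRBV31 and TRBJ2-4, 4 cells: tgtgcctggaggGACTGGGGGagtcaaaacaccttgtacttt

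The alpha chains of the first clonotype listed for each library, which complete the receptor, were TRAV10N with TRAJ9 in WT and TRAV7-4 with TRAJ52 in VISTA-KO.
WT 1: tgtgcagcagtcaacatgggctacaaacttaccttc
VISTA-KO 1: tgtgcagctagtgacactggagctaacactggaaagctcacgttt

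The WT population was dominated by few clones and the VISTA-KO population was not. WT 1 alone held 52 of 201 cells (25.9%, 19.97 to 32.5), whereas each of the most frequent VISTA-KO clonotypes among them held 6 of 144 (4.17%, 1.54 to 8.85). WT 1 held a like share of the WT cells with neither UMI, 872 of 3379 (25.8%, 24.3 to 27.3), so its share was not particular to Cx3cr1 S1pr5 cells. The inverse Simpson index, the number of equally large clones that would give the same chance of drawing the same clone in a pair of cells, was 12.1 in WT and 161 in VISTA-KO. It was 32.6 in WT without the largest CD8 clonotype, and 14.2 and 61.3 with at least 2 UMIs of Cx3cr1 and S1pr5 together. At an equal 144 cells, 54.5 clonotypes were expected in WT and 113 in VISTA-KO, against 80.9 and 113.6 in cells with neither UMI. The other CD8 cells differed between the libraries in the same direction: the index was 13.1 and 77.9 in cells with neither UMI and 69.5 and 1741 in matched cells. In each library the Cx3cr1 S1pr5 cells were less diverse than the matched cells, of which 144 cells would give 117 and 139 clonotypes. Mice of a genotype were pooled, so a clone cannot be assigned to a mouse, and 1 mouse could supply a large clone of a library.

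Most Cx3cr1 S1pr5 cells shared their clonotype with other CD8 cells. The clonotype occurred among CD8 cells with neither UMI for 88.6% (83.3 to 92.6) of the WT and 56.2% (47.7 to 64.5) of the VISTA-KO Cx3cr1 S1pr5 cells. It occurred among matched cells for 80.6% and 42.4%, and among other CD8 cells with a Cx3cr1 or S1pr5 UMI for 79.1% and 22.9%. The same measure can be taken for matched cells against the cells with neither UMI that were not matched. Matched cells shared a clonotype with that group in 41.9% (38.3 to 45.6) of cases in WT and 27.8% (24.8 to 31.1) in VISTA-KO. For Cx3cr1 S1pr5 cells the shares were 86.1% (80.5 to 90.5) and 51.4% (42.9 to 59.8). These shares count cells, and a cell alone in its clonotype cannot share it, which held for 10.4% and 37.5% of Cx3cr1 S1pr5 cells and for 55.3% and 68.0% of matched cells. Among cells whose clonotype held at least 2 CD8 cells, the shares were 96.1% (92.2 to 98.4) of Cx3cr1 S1pr5 and 93.8% (90.6 to 96.2) of matched cells in WT, and 82.2% (72.7 to 89.5) and 87.1% (82.4 to 91.0) in VISTA-KO. The intervals of the groups overlapped in both libraries, with the higher value in Cx3cr1 S1pr5 cells in WT and in matched cells in VISTA-KO. No clonotype of a Cx3cr1 S1pr5 cell occurred in the other library.

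Clone size set the libraries apart further. Among CD8 cells alone in their clonotype, 2.61% (1.62 to 3.96) were Cx3cr1 S1pr5 cells in WT and 4.44% (3.35 to 5.75) in VISTA-KO. In clones of 5 to 19 cells the shares were 7.13% (5.34 to 9.30) and 7.26% (5.50 to 9.36). In clones of 20 to 99 cells they were 8.24% (6.42 to 10.4) in WT but 0.637% (0.0772 to 2.28) in VISTA-KO, where 2 of 314 cells met the rule. In the clones of 100 or more cells, 2 in each library, they were 4.02% (3.03 to 5.23) and 0 of 432 cells, which allows a share of up to 0.8503%. Of the 53 WT cells, 52 belonged to the largest clone (52 of 1006), and the other WT clone held 1 of 312 cells (0.321%, 0.00811 to 1.77). Without the largest clone of each library the VISTA-KO value was 0 of 147 cells. Up to clones of 19 cells, then, the intervals of the libraries overlapped, and in clones of 20 to 99 cells the share was higher in WT. Cells that met the rest of the rule, with or without a Cx3cr1 or S1pr5 UMI, were fewer in the larger VISTA-KO clones too, at 22 of 314 and 9 of 432 cells against 140 of 789 and 142 of 1318 in WT. Of these cells, Cx3cr1 S1pr5 cells made up 65 of 140 and 53 of 142 in WT and 2 of 22 and 0 of 9 in VISTA-KO.

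**Figure D4:**
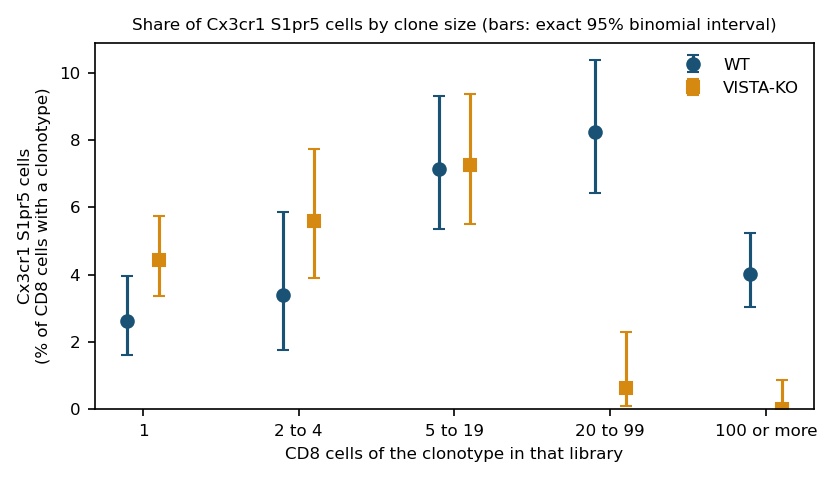
Share of CD8 cells with a clonotype that were Cx3cr1 S1pr5 cells (%), by the number of CD8 cells of the clonotype in that library, for the WT library (circles) and the VISTA-KO library (squares), with exact 95% binomial intervals. The intervals of the libraries overlapped in clones of up to 19 cells and were apart in clones of 20 to 99 and of 100 or more cells, where 2 of 314 and 0 of 432 VISTA-KO cells met the rule, and 52 of the 53 WT cells in clones of 100 or more were of 1 clone. The intervals do not cover the spread between clones.

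In each clone compared, Gzma, Zeb2, Ccl5 and Tbx21 were higher in Cx3cr1 S1pr5 cells than in cells with neither UMI. Klrg1, Gzmb, Cxcr6 and Lag3 did not keep the same direction in all of these clones. No matched cells were set apart within a clone, so these groups also differ in the conditions on Klf2, Pdcd1 and division. Over all WT cells, S1pr1 (118 against 124 CPM), Cxcr6 (276 against 311) and Lag3 (38.8 against 33.5) lay near matched cells. Gzma, Zeb2, Ccl5 and Tbx21 lay above them. In WT 1, other cells with a Cx3cr1 or S1pr5 UMI mostly lay between Cx3cr1 S1pr5 cells and cells with neither UMI. WT 1 held 1006 CD8 cells, of which 52 were Cx3cr1 S1pr5 cells and 872 had neither UMI, all with the same receptor. Gzma was at 3452 CPM (3207 to 3710) in the first and 415 CPM (395 to 434) in the second, Zeb2 at 380 against 40.5 CPM, and Klrg1 at 211 against 27.3 CPM. Ccl5 was at 40272 against 14295 CPM, S1pr1 at 178 against 49.8 CPM and Tbx21 at 206 against 112 CPM. In the other direction, Cxcr6 was at 338 against 818 CPM, Cxcr3, a chemokine receptor of type 1 effector cells, at 220 against 620 CPM, and Lag3 at 14.1 against 44.1 CPM. Gzmb was at 1144 against 985 CPM, a difference much smaller than for Gzma. The 82 cells of the clone that held a Cx3cr1 or S1pr5 UMI and failed the rest of the rule had Gzma at 1832 CPM (1711 to 1960), Zeb2 at 113, Klrg1 at 126 and S1pr1 at 84.8 CPM. Tbx21 was at 215 CPM (175 to 262) and Gzmb at 1026 CPM (935 to 1123) in these cells, so Tbx21 was no lower there than in the Cx3cr1 S1pr5 cells.

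The next clones were smaller. Gzma was at 2668 against 354 CPM in WT 2 (16 and 27 cells), at 3746 against 284 CPM in WT 3 (14 and 58 cells) and at 8136 against 617 CPM in VISTA-KO 1 (6 and 10 cells). In VISTA-KO 3 it was at 1642 CPM in 5 cells, and 0 UMIs were found in the 11 cells with neither UMI, whose upper limit was 86.8 CPM. Klrg1 was at 404 against 187 CPM in WT 2, at 523 against 182 CPM in WT 3. In VISTA-KO 3 it was at 628 against 118 CPM. In VISTA-KO 1, however, Klrg1 was at 231 (93.1 to 477) against 309 (159 to 539) CPM. Gzmb was higher in WT 2 (2194 against 1357 CPM) and WT 3 (4416 against 1722 CPM). It was lower in VISTA-KO 1 (1356 against 2315 CPM) and VISTA-KO 3 (676 against 1695 CPM). Cxcr6 was at 281 against 669 CPM in WT 2 but at 531 against 494 CPM in VISTA-KO 3. Lag3 was at 17.6 against 9.83 CPM in WT 2, from 1 UMI in each group.

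The capitalised stretch GACTGGGGG lies between the V and J parts, where the D segment and added bases sit, in chains joined to TRBJ2-4. It was noticed after the sequences were seen and is given as a count only. Most of the stretch also stands in the chain of VISTA-KO 1, which is joined to TRBJ2-7. How much of it comes from the D segment, which unrelated clones can share, was not tested. In WT, 44 of 215 Cx3cr1 S1pr5 cells with a beta chain (20.5%) carried TRBJ2-4 with the stretch, against 5.10% of cells with neither UMI and 6.96% of matched cells. In VISTA-KO 18 of 158 (11.4%) did, against 3.53% and 4.404%. Counted by clonotype, it was in 5 of 67 (7.46%, 2.47 to 16.6) and 8 of 113 (7.08%, 3.11 to 13.5), against 2.22% and 2.36% of the clonotypes of cells with neither UMI and 8.06% and 5.59% of those of other CD8 cells with a Cx3cr1 or S1pr5 UMI. The intervals by clonotype were wide, and what antigen these receptors bind was not measured in these libraries.

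Between the libraries, Cx3cr1 S1pr5 cells differed in 43 genes called higher in VISTA-KO (0.692%) and 43 called lower (0.692%) of 6214 with at least 20 CPM in the higher library, by 2-fold. With a floor of 50 CPM the counts were 17 (0.503%) and 13 (0.384%) of 3382. The counts depended on the setting, with 140 higher and 202 lower when at least 2 UMIs of Cx3cr1 and S1pr5 were required, 280 and 341 with cells thinned to 2000 UMIs before the rule, and 207 and 204 with clonotypes weighted equally. In the far larger group of cells with neither UMI, 15 genes were called higher (0.251%) and 7 lower (0.117%) of 5985, and in matched cells 13 (0.221%) and 9 (0.153%) of 5871. The median absolute log2 ratio was 0.21 in Cx3cr1 S1pr5 cells, 0.08 in cells with neither UMI and 0.11 in matched cells, so the smaller groups scattered more. A count of genes is therefore not comparable between these groups, and the levels are given side by side.

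Of the immediate early genes, which lymphocytes switch on within minutes of receptor signalling, some were called higher in VISTA-KO and none lower. Of 18 genes over the floor, 6 were called higher and 0 lower, 16 had positive ratios, and the median log2 ratio was 0.70, against 0.43 for the same genes in cells with neither UMI and 0.50 in matched cells. Nr4a1, an orphan nuclear receptor induced by antigen receptor signals, was at 282 CPM (251 to 315) in the WT library against 1098 CPM (1027 to 1173) in that of VISTA-KO, a ratio of 3.90 (3.42 to 4.45). In cells with neither UMI it was at 109 and 331 CPM, a ratio of 3.04 (2.91 to 3.17), and in matched cells at 158 and 439 CPM. A difference of this direction was thus present in all these CD8 groups and was not limited to the Cx3cr1 S1pr5 cells. Thinned to 2000 UMIs, 29.3% of WT and 62.4% of VISTA-KO Cx3cr1 S1pr5 cells held an Nr4a1 UMI, against 14.7% and 33.5% with neither UMI. The CD4 T cells with a Ccr7 UMI differed as well, with 21.7% and 56.7%. So did cells chosen by Siglech, a gene of plasmacytoid dendritic cells, with 10.3% (5.87 to 16.4) and 33.3% (24.3 to 43.4). The difference in Nr4a1 was thus not limited to T cells either. Nr4a3, of the same family, was at 32.4 and 99.4 CPM, and Rgcc, a regulator of the cell cycle, at 36.0 and 138 CPM. Nr4a1 and Rgcc were called under each alternative setting, whereas Nr4a3 was not called with thinned cells (log2 ratio 0.95), and Nr4a2 was not called with thinned cells (0.86), with at least 2 UMIs of Cx3cr1 and S1pr5 together (0.83) or without doublets (0.9995).

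**Figure D5:**
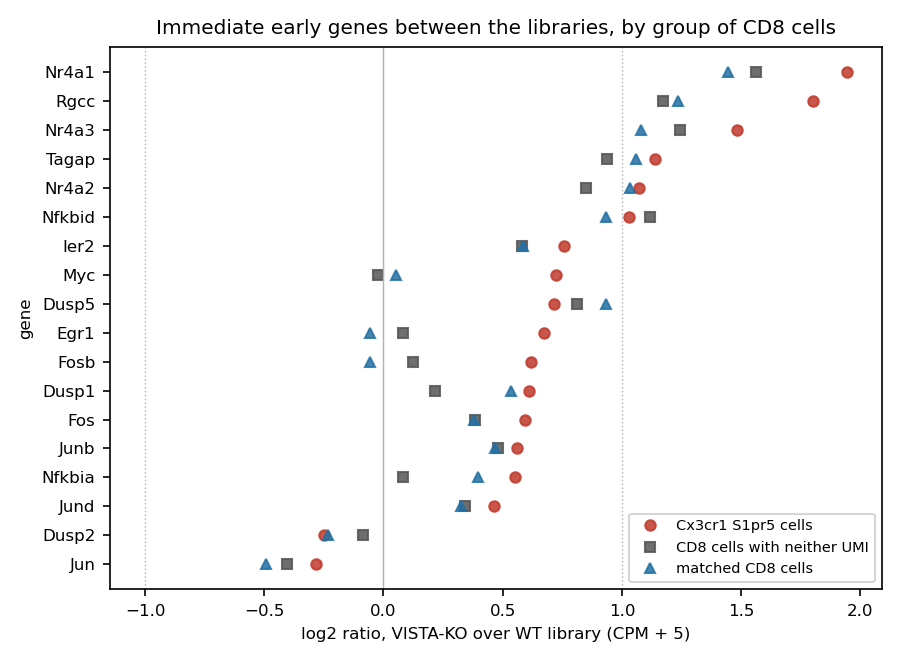
Log2 ratio (CPM + 5) of the VISTA-KO over the WT library for the 18 immediate early genes over the floor, in Cx3cr1 S1pr5 cells (red circles), CD8 cells with neither UMI (grey squares) and matched CD8 cells (blue triangles); dotted lines mark 2-fold. In Cx3cr1 S1pr5 cells 16 of the 18 genes had positive ratios, and Nr4a1 was the highest in all 3 groups, at 1.94, 1.56 and 1.44.

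Other genes were higher in VISTA-KO Cx3cr1 S1pr5 cells, and how far they differed in the comparison cells varied from gene to gene. Il7r was at 97.1 CPM (79.4 to 117) in the WT library against 219 CPM (188 to 253) in that of VISTA-KO, a ratio of 2.25 (1.76 to 2.90), whereas the ratio was 1.23 (1.17 to 1.299) in cells with neither UMI and 1.22 (1.14 to 1.31) in matched cells. Capg, an actin capping protein, was at 132 and 280 CPM, a ratio of 2.12 (1.71 to 2.63) against 1.10 (1.05 to 1.14) and, in matched cells, 1.45 (1.32 to 1.61). The intervals of these ratios did not overlap that of Cx3cr1 S1pr5 cells, but they cover counting error only. Lmna, a protein of the nuclear envelope, was at 25.0 and 132 CPM, and Itgae, the integrin chain CD103 that binds epithelium, at 4.62 and 41.0 CPM, where all 5 WT UMIs lay in 2 cells. On the log2 scale Lmna differed by 2.19, against 1.09 in cells with neither UMI and 1.41 in matched cells, and Itgae by 2.26, against 0.56 and 0.43. Ctla4, the target of the antibody given, was at 24.0 CPM (15.7 to 35.2) in the WT library against 54.7 CPM (39.7 to 73.4) in that of VISTA-KO, a ratio of 2.27 (1.37 to 3.85). In cells with neither UMI it was at 148 and 222 CPM and in matched cells at 46.5 and 91.2 CPM, a ratio of 1.96 (1.66 to 2.32), so the ratio in matched cells lay within the interval of that in Cx3cr1 S1pr5 cells. Gstp3, Ipo5, Tagap and E430024P14Rik completed the 10 highest with at least 50 CPM, with log2 ratios of 1.19, 1.14, 1.14 and 1.36, against 0.33, 0.09, 1.06 and 0.98 in matched cells, beside Ifitm1 at 4.16, of which 72 of 81 VISTA-KO UMIs lay in 1 cell. With at least 2 UMIs of Cx3cr1 and S1pr5 together required, 5 of these genes were no longer called, namely Il7r (log2 ratio 0.62), Capg (0.55), Gstp3 (0.76), Ctla4 (0.59) and Itgae (1.41, under the floor). In those cells Il7r was at 109 CPM (85.4 to 138) in the WT library against 171 CPM (131 to 219) in that of VISTA-KO, with overlapping intervals, and Ctla4 at 18.5 CPM (9.55 to 32.3) against 30.4 CPM (15.2 to 54.4). Of the 44 VISTA-KO UMIs of Ctla4, 33 lay in cells with 1 UMI of the pair. Il7r and Capg were not called without doublets either, both at 0.96. With thinned cells the log2 ratio was 0.93 for Il7r, 0.53 for Capg, 0.79 for Gstp3 and 0.77 for Ipo5, none of them called, and Itgae (1.60) was under the floor. With clonotypes weighted equally Il7r (0.90), Gstp3 (0.66) and Tagap (0.92) were not called. Il7r was not called without the largest CD8 clonotype (0.91), Ctla4 without cells that held a macrophage UMI (0.96) and Ipo5 with the mean of single cells (0.95).

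Of the 10 genes lowest in VISTA-KO, 5 were genes of antigen-presenting or myeloid cells (Cd74, H2-Aa, H2-Ab1, H2-Eb1 and Lyz2). Cd74, the invariant chain of MHC class II, was at 586 and 64.6 CPM in WT and in VISTA-KO, respectively, but 93.4% of the WT UMIs lay in 2 cells. H2-Aa, H2-Ab1, H2-Eb1 and Lyz2 had log2 ratios of -3.29, -3.21, -2.89 and -2.86. Without cells that held 10 or more Cd74 UMIs, which were 3 WT cells and 1 VISTA-KO cell, none of these 5 genes was called, with Cd74 at 0.65, H2-Aa at -0.46, H2-Ab1 at -0.12, H2-Eb1 at 0.26 and Lyz2 at -0.065. Where these UMIs came from was not tested. The others of the lowest 10 with at least 50 CPM were Gm43305, Ppp1r16b, Man2a1, Got1 and Hspa1b, with log2 ratios from -1.42 to -1.07. Man2a1 was not called with at least 2 UMIs of Cx3cr1 and S1pr5 together (-0.93), and Hspa1b was not called with thinned cells (-0.82). Got1 was called neither with thinned cells (-0.91), with clonotypes weighted equally (-0.69), with the mean of single cells (-0.89), without doublets (-0.98) nor without the largest CD8 clonotype (-0.99).

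The effector genes differed less between the libraries. Gzma was at 3872 and 2878 CPM, a ratio of 0.743 (0.706 to 0.782), and in cells with neither UMI the ratio was 0.519 (0.493 to 0.546). Of the circulating effector list 0 of 14 genes were called higher in VISTA-KO and 1 lower, with a median of -0.21, and of 13 cytotoxic genes 0 were called in either direction, with a median of -0.32. Of the inhibitory receptor and exhaustion list, 4 of 15 genes were called higher and 0 lower, of which Nr4a1, Nr4a2 and Nr4a3 also stand in the immediate early list and the remaining gene was Ctla4. Of the other T cell lists, none had more than 1 gene called higher or 2 lower, and the macrophage and dendritic lists had 2 and 3 genes called lower. These were Apoe and Lyz2, and Cd74, H2-Aa and H2-Ab1, none of which was called without cells that held 10 or more Cd74 UMIs or without cells that held a macrophage UMI. Interferon-stimulated genes had 0 called and positive ratios for 12 of 12, with a median of 0.34, against 0.10 in cells with neither UMI and -0.32 in matched cells.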

How the data were processed

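The deposited matrices held raw UMI counts per gene and cell, which the authors made with Cell Ranger 5.0.0 (file header) on GRCm38 (mm10, per the labels), and Seurat 4 is named in the submitters' processing notes. The receptor tables held contigs with UMI counts per contig, as the authors deposited them. The sources name both a 3′ and a 5′ kit for these libraries, so which end of the mRNA was read is not settled. The WT and VISTA-KO libraries held 10337 and 10085 barcodes, 72098984 and 59916814 UMIs and medians of 4684 and 4623 UMIs, and 10224 and 9946 cells passed the filters. No clustering was done.

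UMIs were summed per library and group, scaled to CPM and compared as log2 of CPM + 5 (Python 3.11.15, numpy 2.4.6, scipy 1.17.1, pandas 2.3.3, scanpy 1.11.5). A difference of 2-fold with at least 20 CPM in the higher group was called. The code was tested on simulated data. Doublets were kept in the results given. As an alternative, cells with 2 beta chains or in the top 8% of Scrublet scores were left out, since Scrublet's own threshold marked almost no cell.

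The members and gene lists were chosen with earlier results of these data known. Genes were named by rule: the marker genes, Vsir, examples from each list, the 15 highest and 15 lowest ratios to cells with neither UMI, the 10 highest and 10 lowest between libraries with at least 50 CPM, and the 3 clonotypes with most Cx3cr1 S1pr5 cells in each library. The 4th clonotype was added after the sequences were seen. PCR and sampling of cells add error that the intervals do not cover. Samples were grouped by the labels. Some genes of the lists are counted but not reported here by name.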

Additional observations from a re-analysis of the deposited data

Results flagged for a closer look

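Ifitm1 and Apoe differed in direction between the libraries. The log2 ratio of Cx3cr1 S1pr5 cells over CD8 cells with neither UMI was -1.73 in WT and 1.66 in VISTA-KO for Ifitm1, an interferon-induced membrane protein. Of its 81 UMIs in VISTA-KO Cx3cr1 S1pr5 cells, 72 lay in 1 cell, and WT held 1 UMI. For Apoe, a lipid carrier of macrophages, the ratio was 1.43 in WT and -1.48 in VISTA-KO. Of its 41 UMIs in WT Cx3cr1 S1pr5 cells, 95.1% lay in 2 cells and 39 in the cells with Cx3cr1 alone, and the log2 ratio of VISTA-KO over WT moved from -2.30 to -0.46 without cells that held 10 or more Cd74 UMIs. With 1 library for each genotype neither difference was tested.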

How the results depend on the processing

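No paired analysis was possible because each genotype had 1 library. No library could be left out for the same reason, and the cause of the changes below was not tested. With at least 2 UMIs of Cx3cr1 and S1pr5, Cx3cr1 S1pr5 cells were 3.10% of WT and 1.96% of VISTA-KO CD8 cells, the inverse Simpson index was 14.2 and 61.3, 69.7% of VISTA-KO cells shared a clonotype with cells with neither UMI, 91 genes were called higher than in those cells, and 140 genes were called higher and 202 lower in VISTA-KO than in WT. With cells thinned to 2000 UMIs before the rule, the shares were 4.09% and 2.91%, 52 genes were called lower than in cells with neither UMI, 280 genes were higher and 341 lower in VISTA-KO, and Klra9 changed direction between libraries (0.10). With a pseudocount of 1 CPM, 81 genes were higher and 66 lower in VISTA-KO. With a floor of 50 CPM, 37 were higher and 40 lower than in cells with neither UMI, and 17 and 13 between libraries. With the mean CPM of single cells, 38 were lower than in cells with neither UMI and 66 higher in VISTA-KO. With clonotypes weighted equally, chosen after seeing the data, 37 and 31 genes were called against cells with neither UMI and 207 and 204 between libraries. The numbers of genes called between libraries thus depended strongly on the setting. Without doublets the inverse Simpson index was 11.4 and 139, and without the largest CD8 clonotype of each library it was 32.6 in WT.

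With matched CD8 cells as the comparison, 34 genes were called lower, 80.6% and 42.4% of Cx3cr1 S1pr5 cells shared a clonotype, and the mean log2 ratio of both libraries changed sign for 14 of the listed and ranked genes, to which these alternatives were applied, among them Rgs16 (0.00031), Ube2c (0.92), Ccna2 (0.20), Tk1 (0.040), Aurkb (0.088), Kif11 (0.053), Cenpf (0.27), S1pr1 (-0.070), Adgrg1 (0.084), Ccl3 (0.67), Tigit (0.30), Havcr2 (1.12) and Tnfrsf9 (0.58). Between libraries the log2 ratio changed sign for H2-Ab1 (0.0034), Cd74 (0.24) and H2-Eb1 (0.12) without cells that held a macrophage UMI. Without cells that held 10 or more Cd74 UMIs, also chosen after seeing the data, it changed sign for Cd74 (0.65) and H2-Eb1 (0.26). Of 52 named genes called against cells with neither UMI, 52 were called again without doublets, without the largest clonotype and with at least 2 UMIs, 40 with thinned cells, 38 with the mean of single cells, 24 with clonotypes weighted equally and 20 against matched cells. Of 30 named genes called between libraries, 18 were called again with thinned cells, 20 with at least 2 UMIs, 23 without cells that held a macrophage UMI, 24 without cells that held 10 or more Cd74 UMIs, without doublets and with clonotypes weighted equally, 25 with the mean of single cells and 27 without the largest clonotype.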
